A study of Mus musculus with 27 samples.

Results

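Of 27 libraries of mouse thyroid tissue, 5 held more than 2000 CPM (the count of a gene divided by all counts of its library, times 1000000) of Pth, the mRNA of parathyroid hormone. These 5 are called the high-Pth libraries here and are set against the other 22. Pth chose them, so its own values are a description and carry no test. It was at 28264 CPM in NT replicate 9, 26533 CPM in PL replicate 2, 18123 CPM in NT replicate 7, 4602 CPM in NCT replicate 5 and 2488 CPM in NCT replicate 8. The other libraries ranged from 36.6 to 936 CPM with a median of 61.2 CPM. Just outside the threshold lay NCT replicate 7 at 936 CPM and NCT replicate 1 at 578 CPM, so the set is the same at a threshold of 1000 CPM.

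The tissue was excised by laser-capture microdissection, and the 3′ ends of its polyadenylated RNA were sequenced. NCT is normal thyroid of mice that were not exposed, NT is normal thyroid of exposed mice next to histologic abnormalities, and PL is proliferative lesion tissue from those animals. With 9 libraries a group, 18 mice were sampled, and 9 of them gave both an NT and a PL library. The labels name neither the agent of the exposure nor the strain or age of the animals. The high-Pth libraries are 2 of 9 NCT, 2 of 9 NT and 1 of 9 PL libraries, so the set is mixed in exposure and in tissue state. They came from 3 male and 2 female mice, against 6 male and 16 female libraries in the rest. Their total counts ran from 5047817 to 9150719, within the 2923851 to 14148601 of the others. The p-values below compare libraries that were sorted by their own Pth level. They describe which other genes go with Pth, and they are no test of the exposure or of the lesion.

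Parathyroid glands are small endocrine organs that lie on or within the thyroid and release parathyroid hormone when blood calcium falls. Their chief cells sense calcium through the receptor CASR, store the hormone in dense-core granules and develop under the transcription factor GCM2, with GATA3 and the Eya and Pax factors acting in the lineage. Active vitamin D, acting on the receptor VDR, and the bone hormone FGF23, acting on an FGF receptor with the co-receptor klotho, lower hormone output. In bulk tissue, fewer cells of a type and less RNA per cell cannot be told apart.

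A wide set of genes rose with Pth. In edgeR's quasi-likelihood test with group as a covariate and Benjamini-Hochberg adjustment, 197 of 16873 tested genes were higher in the high-Pth libraries at an adjusted p under 0.05, which is 1.17% of the genes tested. A further 26 genes were lower, or 0.154%, which makes 223 calls (1.32%) in all. Without adjustment, 1962 genes (11.6%) had a p under 0.05, of which 1069 (6.34% of those tested) were higher. Of the adjusted rises, 162 were at least 2-fold and 58 at least 8-fold, and 18 were predicted genes or pseudogenes. In 51 tested genes, or 0.302%, all 5 high-Pth libraries lay above all 22 others, and 47 of these were among the 197. No gene had all 5 below all others. Genes near 0 in the other libraries could pass the expression filter through the high-Pth libraries alone. For those a rise was the only call open, and the counts of rises include them. With the mouse as a block in NT and PL, where 3 mice carry the whole contrast, 97 genes were higher. Without PL replicate 2 the count was 111, and with a score of airway genes in the fit it was 123.

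Among the 6 lists of parathyroid genes, 62 of 67 members were tested, 11 were higher and 1 was lower, against the 1.17% and 0.154% of all genes. The median log2 fold change over the 62 was 0.16, and that over all tested genes was -0.01. Of the 10 lineage transcription factors, 6 were higher with a median of 2.23, while the other 52 tested members held 5 higher and 1 lower. Without both high-Pth NT libraries 7 of the 62 were higher, as also without PL replicate 2, and within NCT alone 1 was.

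**Figure D1:**
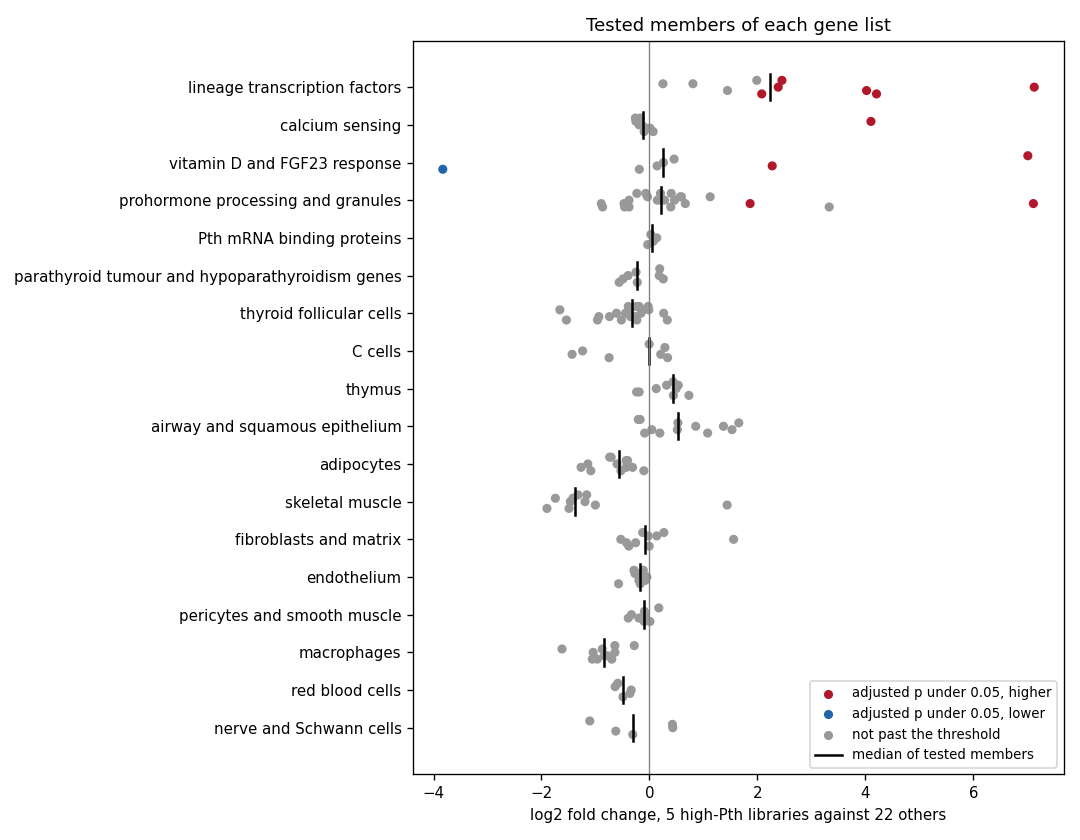
Log2 fold change of each tested member of 6 parathyroid lists (top) and 12 lists of other cell types (below), 5 high-Pth libraries against 22 others with group as a covariate. Red points passed an adjusted p of 0.05 as higher, the blue point as lower, grey points did not pass, and black bars are medians. The lineage factors have a median of 2.23, and no member of the 12 lists below is coloured.

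Gcm2, the transcription factor without which parathyroid glands do not form, was at 29.7 CPM in NT replicate 9, 27.1 in PL replicate 2, 31.7 in NT replicate 7, 8.0 in NCT replicate 5 and 3.01 in NCT replicate 8. It was at 0 in 14 of the 22 other libraries and at most 1.93 CPM, in NCT replicate 7, the library just under the threshold. The sets did not overlap. The log2 fold change was 7.13 (SE 0.63, adjusted p 3.29e-09, edgeR), and its size depends on how zeros are handled. Across the 22 other libraries alone Gcm2 did not pass the expression filter, so a rise was the only call open to it. Its p-value is therefore a description. The 14 libraries without a Gcm2 count held 36.6 to 290 CPM of Pth. Since Gcm2 was low even in the high-Pth libraries, a count of 0 at these Pth levels does not show that it was absent.

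Gata3, a zinc-finger factor whose loss in humans causes hypoparathyroidism with deafness and renal anomaly, was at 129, 149, 155, 52.0 and 25.1 CPM in the same order of libraries. The others had a median of 4.12 CPM, and PL replicate 4 reached 34.5 CPM, so 1 other library lay above NCT replicate 8. The rise was 4.02 (log2, SE 0.51, adjusted p 1.48e-05, edgeR). With the mouse as a block Gata3 was at 5.20 and missed the threshold (adjusted p 0.165, edgeR).

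Eya1 and Pax1, which act in the pharyngeal pouches that give rise to parathyroid and thymus, also rose. Their log2 fold changes were 2.08 (SE 0.46) and 4.21 (SE 0.94), with adjusted p-values of 0.00924 and 0.0122 in edgeR. Each overlapped the other libraries. Eya1 was at 7.22 to 16.4 CPM against at most 13.3 CPM, and Pax1 at 2.56 to 9.73 CPM against 18.5 CPM in NCT replicate 9. Under the mouse block Pax1 missed the threshold (adjusted p 0.09, edgeR), without PL replicate 2 neither passed, and with the airway score Pax1 did not pass (adjusted p 0.0634, edgeR). Pax9, Tbx1, Six4 and Hoxa3, the factors of this list with no call, had log2 values of 1.45, 1.99, 0.81 and 0.25 with adjusted p-values of 0.0507, 0.104, 0.205 and 0.918 in edgeR.

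**Figure D2:**
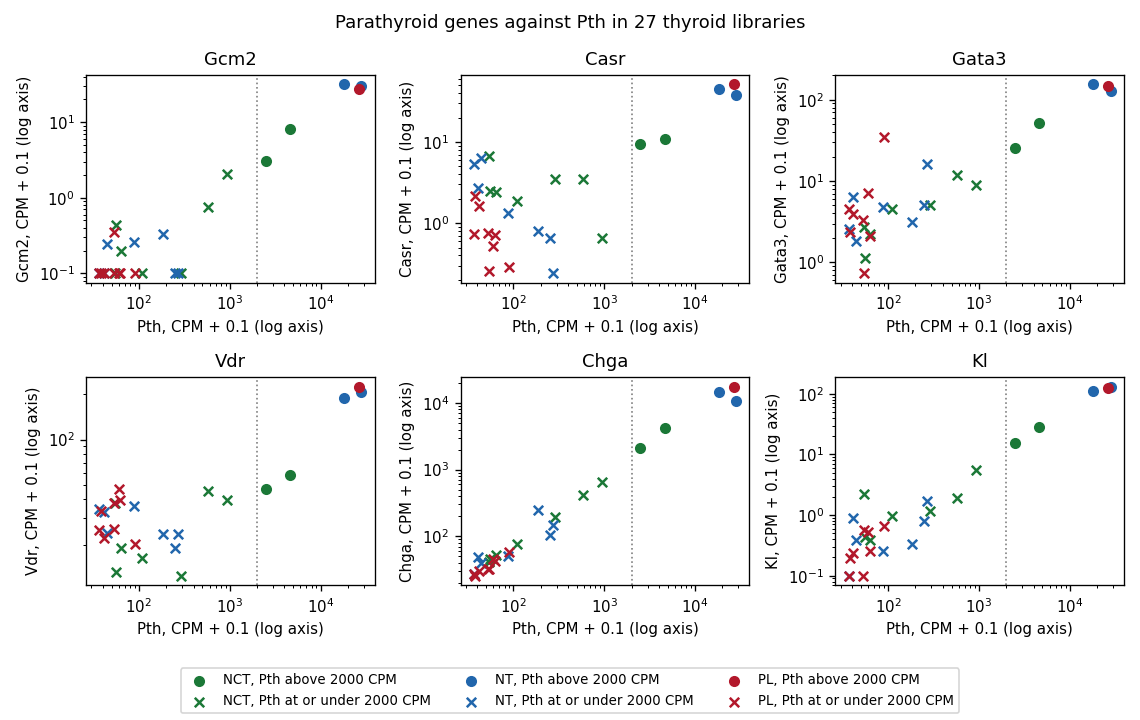
CPM plus 0.1 of 6 parathyroid genes (vertical) against CPM plus 0.1 of Pth (horizontal), both on log axes, for 27 libraries; circles are the 5 high-Pth libraries, crosses the other 22, colours the groups, and the dotted line is 2000 CPM. Chga follows Pth over the whole range, while Gcm2 is at 0 in 14 of the other libraries and Casr, Gata3 and Vdr scatter widely below the threshold.

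Casr, the calcium-sensing receptor, was at 38.0, 51.2, 44.2, 10.7 and 9.32 CPM from NT replicate 9 through PL replicate 2, NT replicate 7 and NCT replicate 5 to NCT replicate 8. The other libraries reached 6.71 CPM, in NCT replicate 2, and had a median of 1.38 CPM, so the sets did not overlap. The log2 fold change was 4.10 (SE 0.54, adjusted p 1.48e-05, edgeR). Thyroid C cells, the calcitonin-making cells between the follicles, also use this receptor, and with a score of C cell genes in the fit the value was 4.34 (adjusted p 1.04e-05, edgeR). The other 9 members of the calcium-sensing list, among them the G proteins Gna11 and Gnaq, the adaptor subunit Ap2s1, the arrestins Arrb1 and Arrb2 and the scaffold Flna, did not pass. Their log2 values lay between -0.26, for the G protein regulator Rgs5, and 0.07, for Ap2s1, and the list median was -0.12.

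Kl, which encodes klotho, was at 131, 126, 110, 28.3 and 15.5 CPM in the same order, against a median of 0.38 and a highest value of 5.53 CPM in the others. The sets were apart by a wide gap, and the log2 fold change was 7.01 (SE 0.55, adjusted p 5.08e-09, edgeR). Vdr, the vitamin D receptor, was at 207, 225, 189, 58.4 and 46.5 CPM. The others ran from 12.3 to 46.7 CPM, and only PL replicate 7 lay above NCT replicate 8. The rise was 2.27 (log2, SE 0.25, adjusted p 7.95e-07, edgeR). The FGF receptor genes Fgfr1, Fgfr2 and Fgfr3 and Rxra, whose protein pairs with VDR, had values from -0.19 to 0.46 and did not pass, and Cyp24a1 and Fgfr4 were too low to test.

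Cyp27b1, which makes active vitamin D, was the 1 parathyroid list member that fell. It was at 0 in NT replicate 9, NT replicate 7 and NCT replicate 8, at 0.375 CPM in NCT replicate 5 and at 1.98 CPM in PL replicate 2. The others ran from 0.812 to 41.3 CPM with a median of 3.24 CPM, and the sets overlapped through PL replicate 2. The log2 fold change was -3.83 (SE 0.86, adjusted p 0.0130, edgeR). Its highest values were in PL replicate 7 and PL replicate 9 at 41.3 and 24.3 CPM, and these are the lesions of the mice whose NT libraries held 0. With the mouse as a block it was at -4.10 and missed the threshold (adjusted p 0.269, edgeR). It also missed the threshold without either NT library, so the fall rests on few libraries.

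Chga, chromogranin A, an acidic protein of secretory granules, was the granule gene that moved most. It was at 10615, 17608, 14886, 4155 and 2083 CPM in the order above, against a median of 47.2 CPM and at most 646 CPM, in NCT replicate 7. The log2 fold change was 7.11 (SE 0.61, adjusted p 2.83e-08, edgeR), and the sets did not overlap. Sytl4, which encodes granuphilin, a protein that docks granules at the membrane, was at 15.8 to 48.7 CPM against at most 15.5 CPM in the others. It rose by 1.87 (log2, SE 0.36, adjusted p 0.00251, edgeR) but not under the mouse block (1.85, adjusted p 0.438, edgeR) or without PL replicate 2. The other 21 tested members of this list of 26 did not pass. They include the prohormone convertases Furin (-0.23) and Pcsk7 (-0.46), the carboxypeptidase Cpe (0.57), the granins Chgb (-0.38) and Scg2 (-0.04), and the amidating enzyme Pam (-0.47), all as log2 fold changes. The list median was 0.22, and Vgf, Rab3b and Ptprn2 were not tested.

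Neither of the remaining parathyroid lists held a call. The 4 genes whose proteins bind Pth mRNA had a median log2 fold change of 0.05, and the 8 genes known from parathyroid tumours or hypoparathyroidism had one of -0.24. At an unadjusted p under 0.05 in edgeR there were 0 and 3 of them.

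Of the 20 largest named rises, Gcm2, Chga, Kl, Casr and Gata3 are on the lists above, and the others are on none of them. Tnmd, tenomodulin, a membrane glycoprotein best known from tendon, was at 758, 710, 740, 170 and 105 CPM in the same order against at most 58.3 CPM. It rose by 6.33 (log2, SE 0.57, adjusted p 6.93e-08, edgeR). Tspan6, a tetraspanin, was at 663, 632, 592, 148 and 77.3 CPM against 12.8 to 56.2 CPM, a rise of 3.95 (SE 0.31, adjusted p 6.42e-09, edgeR). In neither gene did the sets overlap. Tnmd, Tspan6 and Sytl4 are neighbours on chromosome X in the order Tnmd (133850980 to 133865577, GRCm38), Tspan6 (133891068 to 133898429) and Sytl4, with 25491 bases between the first pair and 37956 between the second. Chromosome X held 15 of the 197 higher genes, or 7.61%, and 3.54% of the tested genes.

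Rhcg, an ammonium transporter, was at 116, 143, 148, 30.5 and 24.8 CPM against at most 5.22 CPM, with a log2 fold change of 6.34 (SE 0.54). Cryba2, a beta-crystallin, was at 89.5, 139, 92.5, 25.1 and 18.2 CPM against at most 3.57 CPM, with 6.53 (SE 0.50). Spink8, a Kazal-type protease inhibitor, was highest in PL replicate 2 at 375 CPM and ran from 25.1 to 139 CPM in the other 4 high-Pth libraries, with 6.57 (SE 0.57). All 3 lay above every other library and had adjusted p-values of 2.47e-08, 3.29e-09 and 3.72e-08 in edgeR.

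Syn2, a synapsin of synaptic vesicles, rose by 4.79 (log2) and Aldh1a3, which makes retinoic acid, by 4.21. Akr1c13, an aldo-keto reductase with close copies nearby, rose by 3.85. Their high-Pth values of 20.9 to 148, 14.6 to 73.4 and 10.2 to 106 CPM were above every other library. Upk3a, a uroplakin, rose by 5.80 and Dmrtc1a by 5.16, also with no overlap, at 3.50 to 22.5 and 2.26 to 24.8 CPM. The potassium channel subunit Kcng4 (5.49), Fam222a (4.99), the phosphatidylcholine enzyme Pcyt1b (3.78) and the neuronal leucine-rich protein Lrrn1 (3.54) rose with at least 1 other library above the lowest high-Pth library. Under the mouse block Pcyt1b and Lrrn1 missed the threshold (adjusted p 0.108 and 0.181, edgeR).

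Klk1b26, a glandular kallikrein, rose by 6.50 (log2, SE 0.84, adjusted p 8.27e-06, edgeR). It was at 26.9, 26.3, 24.2, 2.50 and 3.31 CPM, and NCT replicate 7 at 4.70 CPM lay above both NCT members. Klk1b9, Klk1b21 and Klk1b27, named after their values were seen, lie within the same stretch of chromosome 7 and were also among the 197, with 6.29, 5.04 and 4.26. Under the mouse block these 3 missed the threshold (adjusted p 0.0634, 0.195 and 0.533, edgeR). Without PL replicate 2 these 3 did not pass the expression filter and were not tested. Each had a median of 0 CPM in the other libraries and passed the filter through the high-Pth libraries. A rise was thus the only call open to these 3, and their calls are a description. These genes are near-identical copies, so reads could have been split among them and single values are uncertain.

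The promoters of the higher genes were searched for the letters of 2 factors of the lineage list, because Gcm2 and Gata3 rose with them. RefSeq promoters (GRCm38.p6, 250 bases before the start, both strands) matched 149 of the 197. The GCM motif ATGCGGGT was in 0 of 149, against 0.333% of tested genes and 0.226% of all promoters. The GATA motif AGATAA was in 17, or 11.4%, against 7.33% and 11.4%. Neither motif contains the other. These are matches of letters and say nothing of binding. Shown is the window of Upk3a, the named rise with the largest fold change of those that hold the GATA motif before the annotated gene start, 5′ to 3′ on the plus strand. The motif is on the opposite strand (TTATCT, in capitals) and starts 188 bases before the gene start.

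Upk3a, chr15:85016891-85017140: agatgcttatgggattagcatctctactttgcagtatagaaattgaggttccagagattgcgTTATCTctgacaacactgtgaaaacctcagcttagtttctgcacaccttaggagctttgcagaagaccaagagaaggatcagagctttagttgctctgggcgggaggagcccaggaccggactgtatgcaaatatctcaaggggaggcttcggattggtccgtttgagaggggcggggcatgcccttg

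The rises could be compared per unit of Pth, which differed 11.4-fold among the 5 libraries. For each gene the median of the other libraries of its own group was subtracted, and the excess was divided by the excess of Pth. Klotho had 4.65 to 6.07 CPM of excess per 1000 CPM of Pth, a spread of 1.31 times. Tnmd had 26.7 to 40.7, Tspan6 19.8 to 31.5, Syn2 4.78 to 8.15 and Gcm2 1.02 to 1.76, with spreads of 1.52, 1.59, 1.71 and 1.72 times. Vdr spread 1.78 times, Casr 2.23 times, Gata3 2.40 times and Chga 2.42 times, from 375 in NT replicate 9 to 908 in NCT replicate 5. Eya1 and Upk3a spread 6.58 and 6.24 times. Of the 20 named rises, 14 stayed within 3 times. Of the 197 higher genes, 172 had an excess above 0 in all 5 libraries, and 48 of these stayed within 3 times. Since the libraries were chosen by Pth and the genes by their rise, these ratios are a description.

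**Figure D3:**
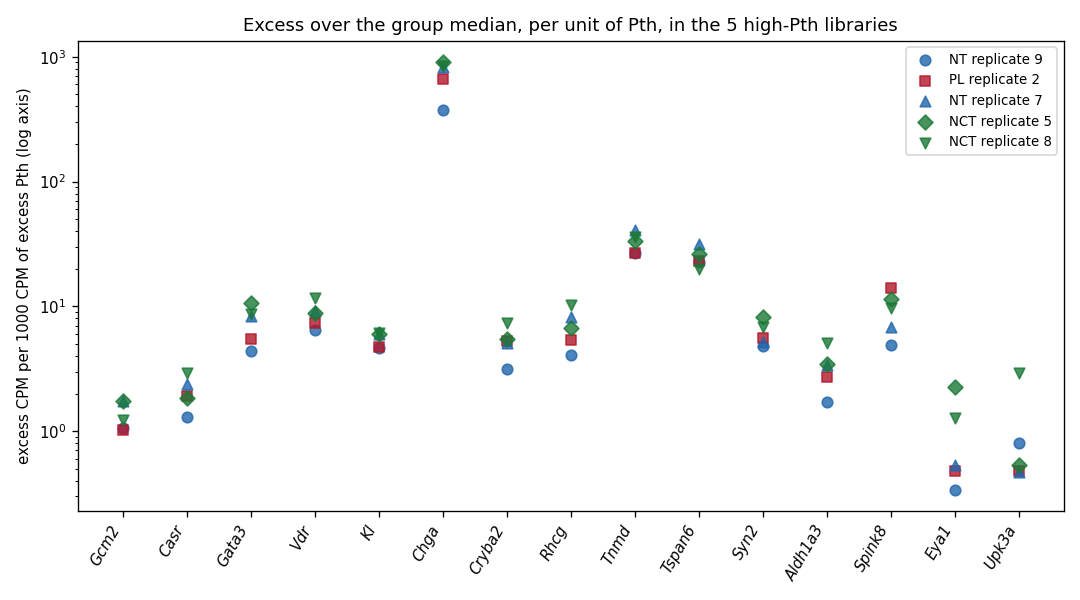
Excess CPM over the median of the other libraries of the same group, per 1000 CPM of excess Pth (log axis), for 15 genes in the 5 high-Pth libraries, with symbols for libraries and colours for groups. Kl lies between 4.65 and 6.07 in all 5, while Eya1 spreads 6.58 times and is highest in NCT replicate 5.

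The 10 genes named as falls changed by less than the named rises, by 0.75 to 1.33 (log2). Cenpf, a kinetochore protein, fell by 1.33 (log2, SE 0.29, adjusted p 0.00786, edgeR) and was at 5.17 to 7.53 CPM against a median of 16.2 and a lowest value of 5.47 CPM. Prc1, a cytokinesis protein, fell by 1.31 (adjusted p 0.0468, edgeR). Mki67 and Top2a, proliferation genes named after their values were seen, were at -0.50 and -0.56 and did not pass. The cation channel Trpv4 fell by 1.23, Ttc39b by 1.07, the apoptosis repressor Nol3 by 1.03, the centrosomal Tacc2 by 0.90, Eva1b by 0.85, the dehydrogenase Dhrs1 by 0.83, the lysosomal protease Ctsb by 0.80 and the carboxypeptidase inhibitor Lxn by 0.75. In all 10 the sets overlapped. Under the mouse block Eva1b alone of the 10 still passed (adjusted p 0.00549, edgeR), but it missed the threshold with sex or the airway score in the fit (adjusted p 0.127 and 0.147, edgeR) and without PL replicate 2, NT replicate 7, NT replicate 9 or NCT replicate 8. Of the 10 falls, Cenpf and Tacc2 were the ones that passed without NT replicate 7, and Tacc2 was the one that passed without NT replicate 9. Without both high-Pth NT libraries edgeR called no gene lower, with 526 lower at an unadjusted p under 0.05.

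Genes of other cell types in the section gave no call in edgeR in any of 12 lists. Of their 121 tested members, 18 had an unadjusted p under 0.05, 4 of them higher, against 11.6% of all genes. DESeq2 called 5 of them, the matrix gene Fbln1 as higher and the thyrotropin receptor Tshr and the macrophage genes Adgre1, Csf1r and C1qb as lower, and limma-voom also called 5. The thyroid list had a median log2 fold change of -0.32 over 22 tested members. Tg, thyroglobulin, the hormone precursor of follicles, was at 13778, 32206, 24763, 41835 and 45380 CPM in the order above against 10384 to 57583 CPM in the others, with -0.02 (adjusted p 0.987, edgeR). All 5 libraries therefore held thyroglobulin within the range of the rest taken over all groups. Within its own group NT replicate 9 held less Tg than every other NT library, the next lowest being NT replicate 6 at 21366 CPM. The lower end of the range, 10384 CPM, was a lesion, PL replicate 7. The iodide transporter Slc5a5 (-0.61), Pax8 (-0.19) and Nkx2-1 (-0.11) did not pass, although NT replicate 9 held 3.50 CPM of Slc5a5, below every other library of the series. The C cell list had a median of -0.01. Calca, calcitonin, was at 70.1 CPM in PL replicate 2 and at 1812 to 6007 CPM in the other 4, against a median of 889 CPM in the rest.

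The thymus list had a median of 0.44 over 9 tested members of 15, and Foxn1, the thymic epithelial factor, was at -0.19 (adjusted p 0.943, edgeR). Medians were -1.37 for skeletal muscle, -0.84 for macrophages, -0.56 for adipocytes, -0.49 for red blood cells, -0.31 for nerve, -0.18 for endothelium, -0.10 for pericytes and -0.07 for fibroblasts. Acta1 of muscle (-1.49) and Ucp1 of brown fat (-1.27) did not pass.

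Airway transcripts were high in some of the 5 libraries and in some of the others. The 12 tested airway genes had a median log2 fold change of 0.52, and none passed in edgeR. Their summed level was 7053 CPM in NT replicate 9, 6359 in NT replicate 7, 3718 in NCT replicate 8, 1333 in NCT replicate 5 and 57.5 in PL replicate 2, against 37.0 to 5992 CPM in the others. Bpifa1, a secreted airway protein, reached 6392 CPM in NT replicate 9 and 5374 CPM in NT replicate 8, which held 40.7 CPM of Pth. It was at 36.9 CPM in PL replicate 2, where Gcm2, Casr and Kl were as high as in the NT members. With the airway score in the fit, 29 of the 37 named genes with a call kept it, among them all 20 named rises. With sex in the fit 34 did, again with all 20 rises, and the part of sex and of airway tissue in the remaining genes was not tested.

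The 3 exposed mice with a high-Pth library gave a second library of the other kind, from which the same animal can be read. For PL replicate 2 the partner is NT replicate 2, with 184 CPM of Pth, and for NT replicates 7 and 9 the partners are PL replicates 7 and 9, with 60.1 and 52.8 CPM. Gcm2 was at 0.235, 0 and 0.249 CPM in these partners, Casr at 0.704, 0.426 and 0.664 CPM, and Kl at 0.235, 0.426 and 0 CPM. In each mouse Gcm2, Casr and Kl were thus high in 1 dissected sample and near the floor in the other. The high sample was once the lesion and in the other mice the adjacent tissue. Chga was at 250, 46.0 and 31.9 CPM in the partners, Vdr at 23.3, 46.7 and 37.7 CPM and Tspan6 at 23.2, 12.8 and 22.1 CPM. These were lower than in the high-Pth library of the mouse but not near the floor. In the fit with the mouse as a block, Kl was at 9.44 (adjusted p 1.54e-06), Tnmd at 8.38 (2.03e-10), Chga at 7.43 (2.14e-05), Gcm2 at 7.15 (0.00261), Casr at 6.04 (0.0276) and Vdr at 2.74 (2.13e-05), all log2 with edgeR's adjusted p. The p-value of Gcm2 is a description here too.

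**Figure D4:**
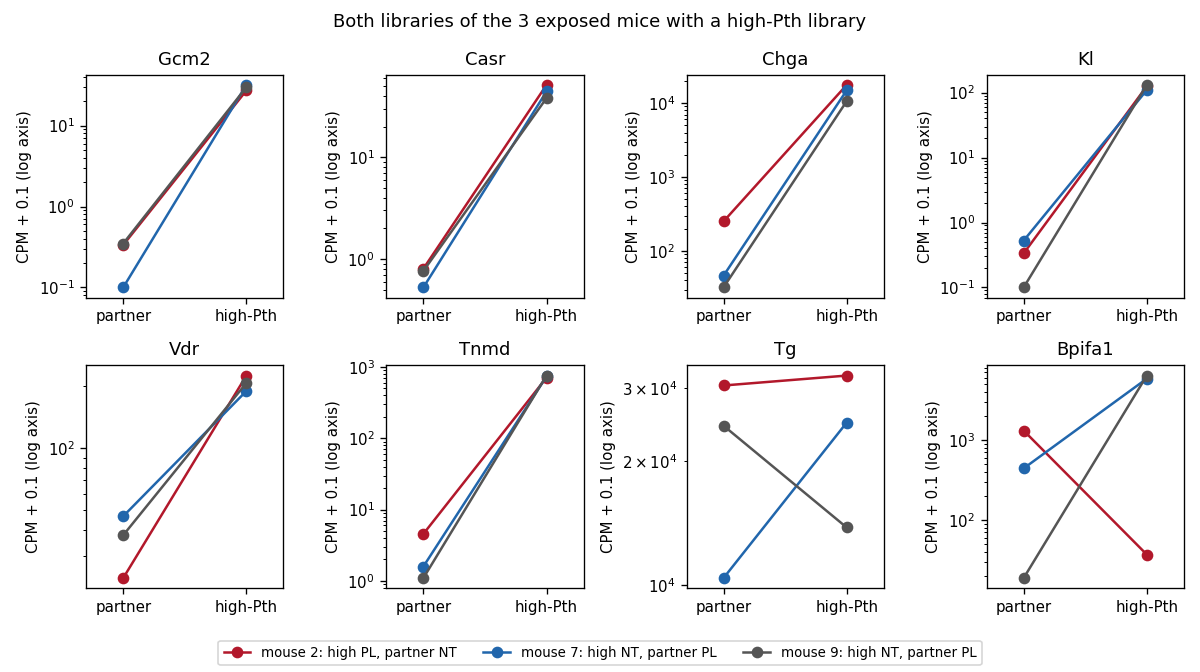
CPM plus 0.1 (log axes that differ between panels) in both libraries of the 3 exposed mice with a high-Pth library; each line joins the partner (left) and the high-Pth library (right) of 1 mouse, numbered by replicate. Gcm2, Casr, Chga, Kl, Vdr and Tnmd are higher in the high-Pth library of every mouse, while Tg and Bpifa1 go up in some mice and down in others.

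The exposed and unexposed members were compared as well. Of the 197 genes, all 197 had a positive log2 fold change within NT alone (median 2.45), and 167 of the 168 that could be tested did within NCT alone (median 0.96). Since these libraries helped to choose the genes, the counts are a description. The difference between the NT and NCT effects was tested as an interaction. It passed for 5 of 17614 genes, or 0.0284%, all with the larger rise in NT. At an unadjusted p under 0.05 it was 1439 genes (8.17%), 593 of them (3.37% of those tested) with the larger value in NT, and DESeq2 called 19 in that direction and 6 in the other. The 5 were Ints6l (2.76, SE 0.38), Myh10, non-muscle myosin (1.92, SE 0.27), Zdhhc2, a palmitoyltransferase (2.65, SE 0.39), Tspan6 (2.83, SE 0.46) and Eif4ebp2, a translation repressor (1.62, SE 0.29), with adjusted p-values of 0.00100, 0.00100, 0.00148, 0.0191 and 0.0258 in edgeR. The NT members held 18123 and 28264 CPM of Pth and the NCT members 4602 and 2488 CPM, so exposure and the amount of Pth cannot be told apart here.

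Below the threshold the programme could be looked for in libraries the rule did not place in the set. Across the 22 others, with group as a covariate, the slope of each gene on log2 Pth passed for 1 of 16864 genes, or 0.00593%, and that gene was Chga. Of the 60 parathyroid list members that could be tested, Chga was the 1 call, and 32 had a positive slope with a median of 0.01. The median was -0.05 for 8 lineage factors and -0.08 for 23 granule genes. Kl, Gata3, Vdr and Casr had slopes of 0.53, 0.68, 0.04 and -0.73 and did not pass (adjusted p 0.9999 for each in edgeR), and Gcm2 and Pax1 were not tested. Pth had a median of 61.2 CPM in these libraries. By the ratios per 1000 CPM of Pth given above, most genes would gain too few counts here for a slope to show. Except for Chga, a missing call therefore cannot show whether a gene goes with Pth below the threshold. The slope of Chga was 0.87 log2 units per log2 unit of Pth (SE 0.06, adjusted p 2.48e-09, edgeR). By the same test 728 genes (4.32%) had an unadjusted p under 0.05, and DESeq2 called 2 genes in each direction. Chga per 1000 CPM of Pth was 420 to 1362 CPM in these libraries, with a median of 705, and 376 to 903 CPM in the high-Pth libraries. Spink8 had a slope of 0.98 and did not pass (adjusted p 0.112, edgeR). Of the 197 higher genes 163 could be tested for the slope, 96 had a positive one, and 11 of those had an unadjusted p under 0.05. Over all genes 50% of slopes were positive and 1.86% were positive with an unadjusted p under 0.05.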

How the data were processed

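The authors deposited 1 table of raw read counts per gene for 27 libraries of laser-captured mouse thyroid, made with a 3′ QuantSeq kit, per the labels' protocols. STAR, featureCounts, DESeq2 and GRCm38 are named per the submitters' processing notes. The strand setting, the annotation release and duplicate handling were not given in the sources used here. Antisense or overlapping genes and near-identical copies are therefore uncertain. Of 54532 rows, 54495 were matched by identifier to names and coordinates of GENCODE M21 (GRCm38), and the other 37 held 0.0043% of counts.

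CPM used the column total. The threshold of 2000 CPM of Pth set the groups, and the labels gave NCT, NT, PL, sex and mouse. Genes passing edgeR's expression filter (minimum count 10) were fitted with TMM factors, group as a covariate and the quasi-likelihood test (R 4.3.3, edgeR 4.0.16, limma 3.58.1, DESeq2 1.42.0), with Benjamini-Hochberg adjustment over all tested genes at 0.05. Pth was kept out of the tests. The code was tested on simulated data with 200 changed genes. A library is 1 dissected sample, so p-values measure the spread between these samples. Mouse pairs of NT and PL rest on the mouse number in the labels, and deviations from group means correlated at 0.015 to 0.385 in the 9 pairs, 6 of them above 0.1. Libraries of different mice were not compared in this way, so these values do not test the pairing. Because NT and PL of a pair come from 1 animal, a fit with the mouse as a block is given beside the results it changes.

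The part of the libraries described and the gene lists were chosen with earlier results of these data known. Named are the list members with a call, 6 parathyroid genes and 10 genes of other cell types in any case, and the 20 largest rises and 10 largest falls past the threshold. A named rise or fall had a mean of at least 10 CPM in the higher set and all 5 high-Pth libraries on 1 side of the median of their group's other libraries, and predicted genes and pseudogenes were only counted. Some genes that this rule names are not reported here, and counts include them. Alternatives were other scalings, tests and filters, other thresholds, sex or a cell-type score as covariate, single groups, the mouse block and each high-Pth library left out.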

Additional observations from a re-analysis of the deposited data

Results flagged for a closer look

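In groups of 9 libraries, a gap test for 1 library far from the rest was run on 48 sets of values and marked 13. Chance marks about 1 in 20 where values are normally distributed, which was not checked for CPM. Of the 13 marks, 8 are parathyroid genes in a high-Pth library. Those libraries were chosen by Pth, so these 8 marks are a description. In PL replicate 2 they were Gcm2 at 27.1 CPM, Casr at 51.2 CPM, Gata3 at 148.7 CPM, Chga at 17608 CPM and Kl at 125.9 CPM. In NCT replicate 5 they were Gcm2 at 8.0 CPM, Gata3 at 52.0 CPM and Chga at 4155 CPM. The other 5 were the total count of NT replicate 3 at 14148601, Slc5a5 in PL replicate 9 at 567.2 CPM, Calca in PL replicate 4 at 327.7 CPM, Bpifa1 in PL replicate 7 at 442.3 CPM and Acta1 in PL replicate 6 at 112.0 CPM.

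In 5 genes the step from the other to the high-Pth libraries differed between NT and NCT by the interaction test in edgeR. The NT effect minus the NCT effect was 2.76 for Ints6l, 1.92 for Myh10, 2.65 for Zdhhc2, 2.83 for Tspan6 and 1.62 for Eif4ebp2, on the log2 scale. The high-Pth members held 18123 and 28264 CPM of Pth in NT and 4602 and 2488 CPM in NCT. Exposure and the amount of Pth therefore cannot be told apart, and the rise per unit of Pth was not tested.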

How the results depend on the processing

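The count of 197 higher genes was 488 with limma-voom and the mouse as a random replicate block, 97 with the mouse as a fixed replicate block in NT and PL (193 in the same libraries without the block), 305 with no filter on low counts, 123 with the airway score, 8 within NCT alone and 57 without both high-Pth NT libraries. Leaving out 1 library gave 111 to 208, lowest without PL replicate 2. The 26 lower genes became 122 with DESeq2, 50 with limma-voom, 12 with the airway score, 82 in NT alone, 2 in NCT alone, 46 with an adipocyte score and 0 without both high-Pth NT libraries, where 526 genes were lower at an unadjusted p under 0.05 in edgeR. Leaving out 1 library gave 7 to 36. With the mouse as a fixed block in NT and PL 24 genes were lower, and 1 of them was among the 26. In the same libraries without the block 33 were lower, with 11 of the 26. Upper-quartile factors gave 18 lower genes, and leaving Pth out of the totals gave 21. The 11 higher members of the parathyroid lists were 1 in NCT alone and 7 to 12 with 1 library left out, and 7 without both high-Pth NT libraries. For the slope below the threshold DESeq2 gave 2 genes higher and 2 lower and limma-voom 2 higher. For the difference between NT and NCT, no filter gave 19 higher and 8 lower and DESeq2 19 and 6. The cause of these shifts was not tested. No named gene with a call changed sign, and the scalings moved the median of all genes by less than 0.1. The fits without both NT libraries, with the adipocyte score, and of NT and PL without the block were chosen after seeing the data. Genes under a few CPM, such as Gcm2 outside the set, rest on few counts.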

Other observations

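These genes were picked after their values were seen. Some genes with a moderate rise had p-values as small as those of the largest rises. Kansl1l was at 117, 126, 134, 46.3 and 33.4 CPM in NT replicate 9, PL replicate 2, NT replicate 7, NCT replicate 5 and NCT replicate 8, against 6.06 to 18.1 CPM in the others, with a log2 fold change of 3.06 (SE 0.18, adjusted p 1.61e-13, edgeR). Gdpd1, a phospholipase-like enzyme, was at 2.76 (SE 0.17), Rapgef5, an exchange factor for Rap, at 2.58 (SE 0.18), and Fbxw7, an adaptor of a ubiquitin ligase, at 1.80 (SE 0.17). In all 4 the sets did not overlap.

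Each gene in the following was looked up singly, and no list of their pathway was tested. Gnas, the stimulatory G protein, was at 1088 to 2422 CPM against 413 to 1327 CPM (1.31, SE 0.21, adjusted p 0.000260, edgeR). Itpr1, the receptor that releases calcium from internal stores, was at 0.77 (SE 0.13), and Plcb1, a phospholipase C, at 0.91 (SE 0.18). Fam20c, a kinase of secreted proteins, was at 24.7 to 142 CPM against at most 16.7 CPM (3.27, SE 0.31), and its partner Fam20a was at 2.11 (SE 0.27). Peg3, an imprinted zinc-finger gene, was at 2.11 (SE 0.34). All of these stayed past the threshold under the mouse block, and Plcb1 did not without PL replicate 2 (adjusted p 0.123, edgeR).

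Gm48510, a long non-coding RNA on chromosome 13 at 41176888 to 41179030 (GRCm38), lies 65853 bases from Gcm2. It was at 1.5 to 17.8 CPM in the high-Pth libraries and at most 0.342 CPM in the others, with 7.92 (SE 0.61, adjusted p 1.03e-10, edgeR), a size that depends on how zeros are handled. Gm48510 passed the expression filter only through the high-Pth libraries, so a rise was the only call open to it. Its p-value is therefore a description, and without PL replicate 2 it did not pass the filter. Under the mouse block it missed the threshold (adjusted p 0.0947, edgeR).

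Dnah9, a dynein heavy chain of motile cilia, was at 21.1, 2.13, 14.1, 2.38 and 6.92 CPM in the order above against at most 2.76 CPM (3.81, SE 0.63, adjusted p 0.000215, edgeR), and NT replicate 8, which has airway transcripts and little Pth, held 2.11 CPM. Rsph4a, Deup1, Cfap126, Cfap161, Cfap46, Cfap57 and Dnah12 were also past the threshold, between 1.0 and 3.93. They were picked from among the calls, and no list of cilia genes was tested. With the airway score in the fit, Dnah9, Rsph4a and Deup1 passed and the other 5 did not. Foxj1, the regulator of motile cilia, was at 1.53 and did not pass (adjusted p 0.402, edgeR). Under the mouse block none of the 8 passed, and the part of airway tissue in them was not tested.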
